A study of Drosophila melanogaster with 3 samples.

Results

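Chemosensory genes of Drosophila melanogaster encode the receptors and carrier proteins with which flies smell and taste. They were taken here as the protein-coding genes whose symbol starts with Or, Gr, Ir or Obp followed by the cytological number and letter, which gave 230 of the 13945 protein-coding genes on the 6 main arms: 59 odorant receptor (Or), 60 gustatory receptor (Gr), 60 ionotropic receptor (Ir) and 51 odorant binding protein (Obp) genes. The coreceptor gene Orco and the binding protein gene lush belong to the same systems but have other symbols, so they are given apart. All 230 genes were assessed and no gene was removed for low values.

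The factor mapped was E(spl)mgamma-HLH, one of the bHLH repressors switched on by Notch signalling, and its binding was measured by chromatin immunoprecipitation with sequencing (ChIP-seq) in whole embryos. The single group was the strain Esplmgamma-HLH-GFP, a transgenic line whose E(spl)mgamma-HLH carries GFP at its C terminus, with an anti-GFP antibody, males and females pooled, aged 0 to 16 hours, in 3 biological replicates. No untagged or other group was analysed here, and all 3 replicates carry the transgene. In whole embryos, strong binding in few cells and weak binding in many cells cannot be told apart.

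Odorant and gustatory receptors are membrane proteins that form ligand-gated channels, and most olfactory neurons express a single odorant receptor beside the shared coreceptor Orco. Ionotropic receptors are relatives of glutamate receptors and work with the coreceptors Ir8a, Ir25a and Ir76b. Odorant binding proteins are small secreted proteins, many of them of the fluid around sensory neurons. The larval sense organs form in the second part of embryogenesis and the adult ones in the pupa, and most receptor genes are used in few neurons.

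Chemosensory genes were nearly free of E(spl)mgamma-HLH peaks. Of the 230 genes, 6 (2.61%) had the summit of a reproducible peak in the gene or within 1 kb upstream, while 26.4% of all protein-coding genes did. The reproducible set is the authors' list of 4524 peaks that passed the irreproducible discovery rate (IDR) step. The 6 genes were the odorant receptor genes Or88a and Or9a, the gustatory receptor gene Gr32a, the ionotropic receptor gene Ir60e, and the odorant binding protein genes Obp99b and Obp83g. None of the 7 summits lay inside a chemosensory gene: all were intergenic, between 241 and 986 bp upstream of the gene's own transcription start site (TSS). The families had 2 of 59 (Or), 1 of 60 (Gr), 1 of 60 (Ir) and 2 of 51 (Obp).

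The summits fell into own promoters at Obp genes and into the promoters of neighbours at receptor genes. A summit was put in a gene's own promoter when it lay within 500 bp of a TSS of that gene and no TSS of another protein-coding gene was nearer. This held for Obp99b and Obp83g, so 2 of 230 chemosensory genes (0.870%) had an own-promoter summit, against 14.3% of all protein-coding genes. At Or88a, Or9a, Gr32a and Ir60e the nearest TSS was that of a divergent neighbour. Among the other genes with a reproducible summit, 54.1% had one in their own promoter, 28.2% had one only in a neighbour's promoter and 17.7% had summits only away from promoters.

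The 101 bp around 6 of the 7 reproducible summits are shown, and that of Ir60e is given by its values only, to let the own-promoter sites be set beside the neighbour-promoter sites. They are read on the strand of the chemosensory gene, from the RefSeq dm6 genome, and positions are 1-based. Capitals mark matches to the motifs searched. These were CACGTG and CACGCG, known target letters of the Hairy and E(spl) repressors, the N-box form CACNAG, the promoter element TATCGATA, and GATGGCGCC, which was added after the Obp99b sequence had been read.
Obp99b, chr3R:29717087-29717187, minus strand: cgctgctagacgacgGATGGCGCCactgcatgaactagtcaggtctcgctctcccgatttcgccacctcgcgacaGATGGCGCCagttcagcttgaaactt
Obp83g, chr3R:6112551-6112651, minus strand: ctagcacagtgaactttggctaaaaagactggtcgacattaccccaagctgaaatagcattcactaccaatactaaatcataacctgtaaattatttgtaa
Or88a, chr3R:14108731-14108831, plus strand: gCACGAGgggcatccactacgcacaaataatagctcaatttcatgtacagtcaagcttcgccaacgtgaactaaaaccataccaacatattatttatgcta
Or9a, chrX:10460612-10460712, minus strand: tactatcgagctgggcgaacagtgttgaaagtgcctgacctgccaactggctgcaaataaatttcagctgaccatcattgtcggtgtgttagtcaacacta
Gr32a, first summit, chr2L:11113168-11113268, plus strand: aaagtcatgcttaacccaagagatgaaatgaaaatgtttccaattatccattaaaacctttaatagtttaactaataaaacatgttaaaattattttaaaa
Gr32a, second summit, chr2L:11113371-11113471, plus strand: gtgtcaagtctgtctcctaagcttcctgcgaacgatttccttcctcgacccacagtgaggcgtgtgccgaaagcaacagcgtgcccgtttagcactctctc

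The E-box CACGTG was in none of these windows on either strand, and neither was CACGCG nor the element TATCGATA. CACNAG stood once, in the Or88a window. Over all 4524 summit windows the shares were 0.818% for CACGTG, 1.17% for CACGCG, 10.5% for CACNAG and 1.95% for TATCGATA. The GC content of the windows ran from 21.8% at the first Gr32a summit to 58.4% at Obp99b, against a mean of 34.7% (SD 8.81) over all summit windows. GATGGCGCC occurred at 2 places in the Obp99b window, in the same direction. It was present in 25 of the 4524 windows (0.553%), and 2 windows held it at 2 or more places. Since the motif was read from this window, these values are a description only, and no protein was assigned to it.

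Obp99b, which encodes an odorant binding protein, carried the strongest peak among own promoters of chemosensory genes. The gene (FBgn0039685, 3R:29716254 to 29716896, minus strand) had its summit -241 bp from its TSS, with a signal of 323.7 and rank 1013 of the reproducible set. The matching peaks had signals of 114.7, 119.1 and 87.7 in replicates 1, 2 and 3, which ranked 1001, 898 and 1327 in their lists. Ranks refer to the authors' peak signal within a list, and signals are not comparable between lists. A second summit at -832 bp stood in the pooled list only, at rank 5060. It ranked 3970 in replicate 1 and 5975 in replicate 2 but 16172 in replicate 3, where its q-value was 0.673. Obp99d lies next to it and had no summit in any list.

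Obp83g (FBgn0046875, 3R:6111671 to 6112302, minus strand) is the end member of a row of Obp genes that also holds Obp83cd and Obp83ef. Its summit lay at -299 bp and ranked 3605 in the set, with ranks of 4097, 3207 and 5305 in replicates 1, 2 and 3. The replicate 3 peak was therefore outside the 4524 strongest of that list, with a q-value of 0.00273. The neighbours had pooled summits of low strength, at -82 bp from Obp83cd (rank 17371, q = 0.800) and at 948 bp inside the coding sequence of Obp83ef (rank 13871, q = 0.543).

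The receptor gene with the strongest summit was Or88a (FBgn0038203, 3R:14109445 to 14110823, plus strand), which encodes an odorant receptor that responds to fly-derived odours. The summit lay -664 bp from the Or88a TSS and -460 bp from that of the divergent gene CG12402, with rank 937 in the set and ranks of 1269, 656 and 913 in replicates 1, 2 and 3. At Or9a (FBgn0030204, X:10458186 to 10459676, minus strand), an odorant receptor gene of the adult antenna, the summit was -986 bp away and stood -74 bp from Neb-cGP. Its rank was 1675 in the set, and 1159, 2265 and 2063 in replicates 1, 2 and 3. Both sites were among the 4524 strongest peaks of every replicate, but neither was in the gene's own promoter.

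Gr32a (FBgn0041246, 2L:11114014 to 11115823, plus strand), a receptor for bitter compounds and male pheromone, had summits at -796 and -593 bp. They lay -157 and -360 bp from the TSS of Idua, a divergent gene that encodes a lysosomal iduronidase, and ranked 2154 and 2646 in the set. The first ranked 2472, 2436 and 1734 in replicates 1, 2 and 3, and the second 2637, 2436 and 3910. In replicate 2 both summits fell inside a single peak. It is 1 of 5 commonly shared bitter receptor genes, and the other members of that list had no reproducible summit. A share of 20% in so short a list is near the background of 26.4%.

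Ir60e (FBgn0035019, 2R:24529554 to 24531272, minus strand) had a summit within reach of both promoters. It lay -278 bp from the Ir60e TSS but -44 bp from the nearest TSS of the divergent gene CG13585. Its rank was 3442 in the set, and 3752, 5472 and 3602 in replicates 1, 2 and 3. It was thus below the 4524 strongest peaks in replicate 2 only. A further summit, in the pooled list only, lay -843 bp from Ir60e and 3 bp downstream of another annotated TSS of CG13585 (rank 6476, q = 0.00409). It ranked 21940 in replicate 1, and 8300 and 5783 in replicates 2 and 3.

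**Figure D1:**
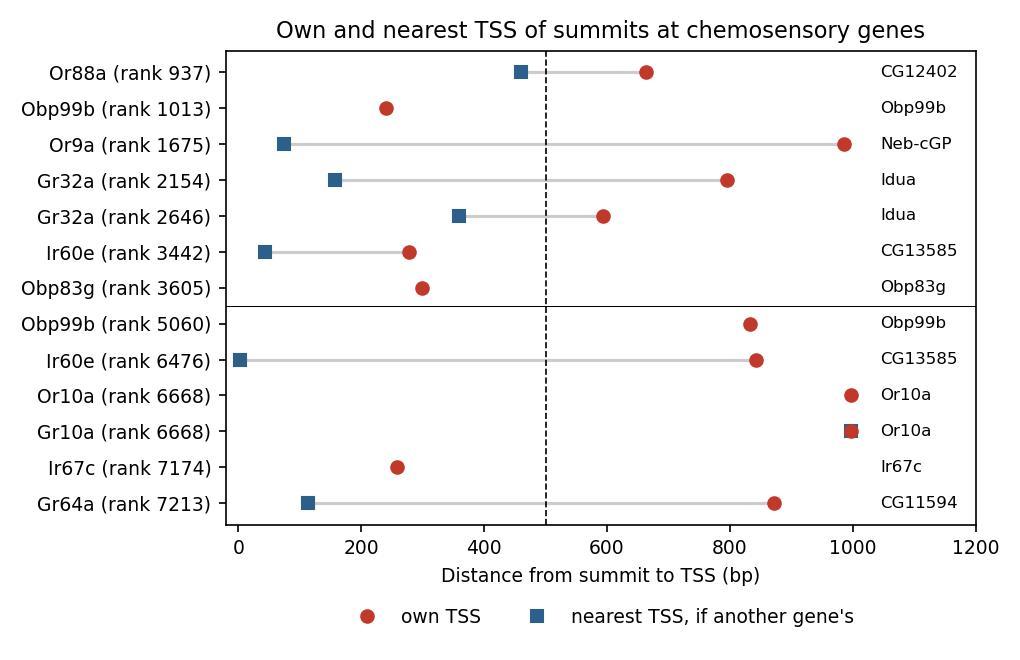
Distance in bp from each summit with a q-value below 0.05 to the chemosensory gene's own TSS (red circles) and, where another gene's TSS is nearer, to that TSS (blue squares). The gene that owns the nearest TSS is named at the right, and the dashed line marks 500 bp. Above the horizontal line are the 7 reproducible summits and below it those of the pooled list only, with ranks by signal. Obp99b and Obp83g are the rows above that line in which the own TSS is the nearest, and Or10a and Gr10a share 1 summit.

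**Figure D2:**
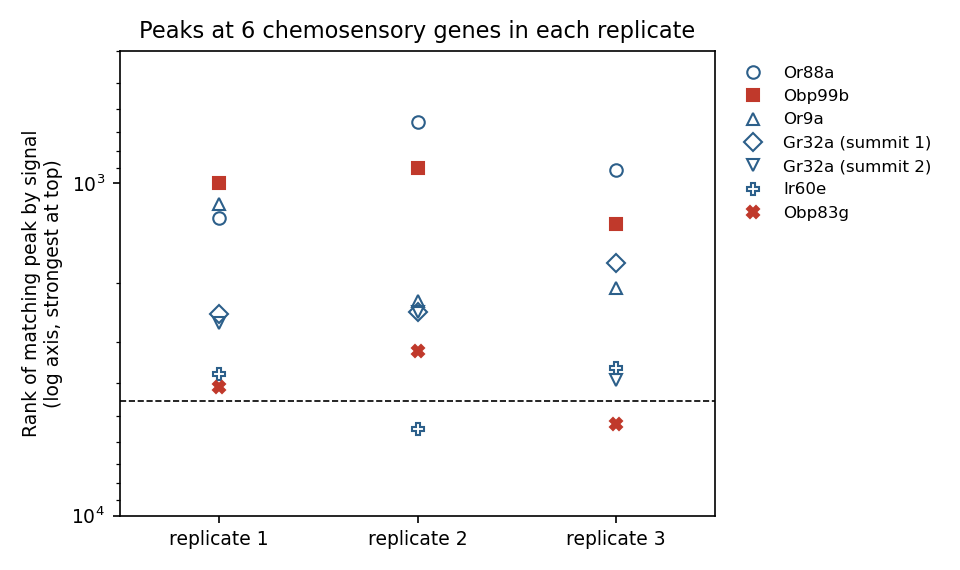
Rank by signal, on a log axis with the strongest at the top, of the replicate peak that holds each of the 7 reproducible summits. Filled red symbols are own-promoter summits, open blue symbols are summits nearer to another gene's TSS, and the dashed line is rank 4524. The points below the line are Ir60e in replicate 2 (5472) and Obp83g in replicate 3 (5305).

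Few chemosensory genes had strong peaks in any replicate. Among the 4524 strongest peaks of its own list, replicate 1 had a summit at 6 chemosensory genes (2.61%), replicate 2 at 5 (2.17%) and replicate 3 at 5 (2.17%). Over all protein-coding genes the shares were 26.7%, 25% and 26.5%. In all, 4 chemosensory genes had such a summit in all 3 replicates, 2 had one in 2 replicates and 224 had none. The 6 genes were those of the reproducible set, which was itself derived from these lists. Genes outside the group were not counted by number of replicates. The mean share was 2.32% ± 0.251 for chemosensory genes and 26.5% ± 0.903 for the other genes (SD, n = 3 replicates). The difference was -24.1 percentage points ± 0.785 and had the same direction in 3 of 3 replicates, with p = 0.25 in the exact two-sided sign-flip permutation test, the smallest p that 3 replicates allow.

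The replicates differed more when every listed region was counted. With the background regions that the authors listed for the IDR step, 79 (34.3%), 42 (18.3%) and 80 (34.8%) chemosensory genes had a summit in replicates 1, 2 and 3, against 59.0%, 64.5% and 60.4% of the other genes. The mean difference was -32.2 percentage points ± 12.2 (SD, n = 3). Replicate 2 had the lowest share of chemosensory genes and the highest share of other genes. With peaks of a q-value below 0.05 the order was different, at 6 (2.61%), 17 (7.39%) and 7 (3.04%) chemosensory genes, against 30.3%, 46.5% and 35.2% of the other genes. The background over all protein-coding genes was 58.6%, 63.8% and 59.9% for any listed summit and 29.8%, 45.8% and 34.7% for a q-value below 0.05. By number of replicates, 14 chemosensory genes had a listed summit in all 3 replicates, 75 had one in a single replicate, and 99 had none. The same counts were not made over all protein-coding genes, so it cannot be said whether they are particular to this group. Replicate 2 listed 30000 regions, against 23367 in replicate 1 and 24251 in replicate 3, and 12953 of them had a q-value below 0.05, against 5411 and 7087. The part of these list lengths in the difference between replicates was not tested.

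**Figure D3:**
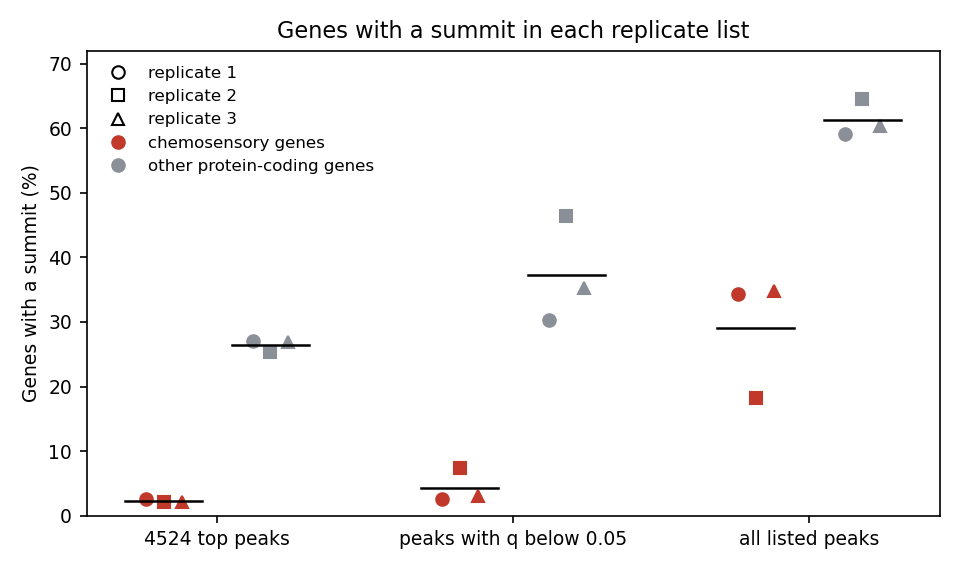
Share of genes (%) with a summit in the gene or 1 kb upstream, for chemosensory genes (red) and other protein-coding genes (grey) in each replicate, by how many peaks of the list were used. Symbols are the replicates and bars their means. With the 4524 top peaks the chemosensory shares are 2.61, 2.17 and 2.17%, and with all listed peaks replicate 2 is the lowest of the red points at 18.3% and the highest of the grey ones at 64.5%.

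Chemosensory genes are short, and in this annotation shorter genes had summits less often, so shares were also given by length of the gene with its 1 kb upstream. The median gene length was 1498.5 bp for chemosensory genes and 2191 bp for the other genes. Below 2 kb, where most Obp genes lie, 2 of 35 chemosensory genes (5.71%) had a reproducible summit, against 9.81% of 2640 other genes. From 2 to 3 kb, the class of most receptor genes, the counts were 4 of 139 (2.88%) against 19.9% of 3703. From 3 to 5 kb, 0 of 46 had one, against 27.0% of 3178, and at 5 kb or more 0 of 10, against 43.4% of 4194. Own-promoter summits below 2 kb were found at 5.71% of chemosensory genes and 5.11% of other genes, and the first share rests on 2 genes. From 2 to 3 kb they were found at 0 of 139 chemosensory genes, against 11.7% of other genes.

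**Figure D4:**
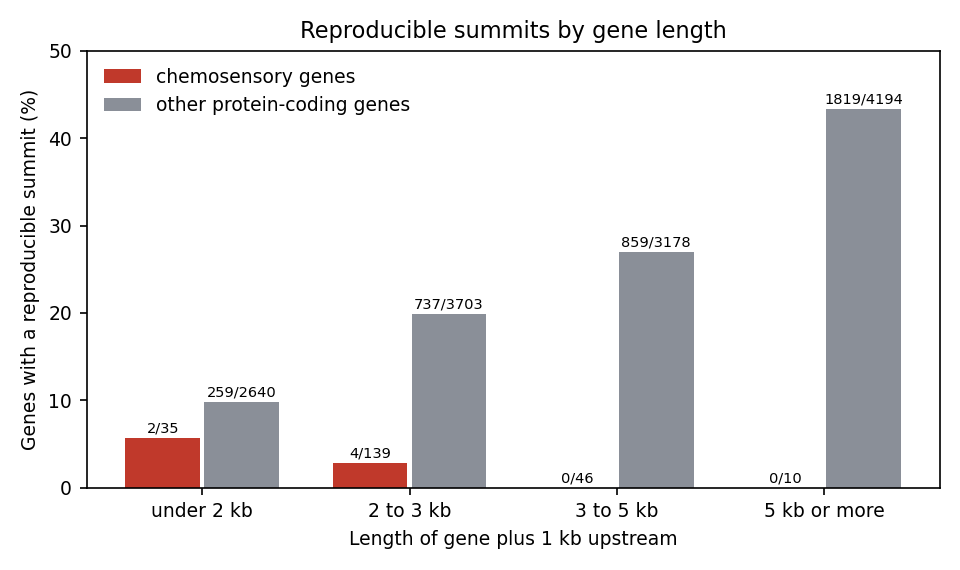
Share of genes (%) with a reproducible summit in the gene or 1 kb upstream, by the length of that region, for chemosensory genes (red) and other protein-coding genes (grey). Numbers above the bars are genes with a summit over genes in the class. The share of other genes grows from 9.81% to 43.4% with length, while that of chemosensory genes is 5.71% in the shortest class and 0 of 46 and 0 of 10 in the longest classes.

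The 4 receptor genes with a reproducible summit all had a gene of another kind starting close by, as their placement in neighbour promoters requires. The counts of reproducible summits at receptor genes below restate that placement and are not separate evidence. Of the 55 chemosensory genes with a TSS of a gene outside the group within 500 bp of their territory, 4 (7.27%) had a reproducible summit, and none was in the chemosensory gene's own promoter. Of the 175 without such a TSS, 2 (1.14%) had one, both in Obp promoters, and no Or, Gr or Ir gene among them did (0 of 47, 0 of 46 and 0 of 46). Among the other genes the shares were 34.4% with such a neighbour and 14.9% without. Without such a neighbour, 3 of 47 Or, 4 of 46 Gr and 6 of 46 Ir genes had a summit in the pooled list. That list includes background, and the share without such a neighbour was 45.0% of the other genes and 44.0% of all protein-coding genes. No test of these differences was made. Tandem arrangement was also tabulated. Of 111 genes in clusters, whose starts lie within 10 kb of the next chemosensory gene, 2 had a reproducible summit, and of 119 that lie alone 4 did. None of the 30 genes nested inside another protein-coding gene had one. All 3 sets were below the 26.4% of all protein-coding genes, and no count was made of clustered or nested genes outside the group.

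The tandem clusters with the most members were free of reproducible summits. This is not particular to them, since the spans of all smaller clusters and of genes that lie alone were free of them too. These were the 6 genes Obp56a to Obp56f over 16.3 kb of arm 2R, the 6 sugar receptor genes Gr64a to Gr64f over 10.8 kb of 3L, the 6 genes Ir7b to Ir7g over 22.0 kb of X, the 5 genes Gr22a to Gr22e over 10.9 kb of 2L, and the 5 genes Obp50a to Obp50e over 5.06 kb of 2R. The pooled list, background included, had no summit within any of these 5 spans, nor within the spans of most smaller clusters. Gr64a, at the end of its cluster, had a pooled summit upstream of the cluster, 114 bp downstream of the TSS of CG11594 (rank 7213, q = 0.0117).

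The nearest reproducible summit was far from most chemosensory genes. The median distance from a TSS to it was 15208.5 bp over chemosensory genes (quartiles 5985 and 37988 bp) and 6852 bp over the other genes (quartiles 1283 and 19268 bp). By family it was 27660 bp for Or, 10437 bp for Gr, 15834 bp for Ir and 10974 bp for Obp genes. A summit within 1 kb of a TSS was found for 2.61% of chemosensory genes and 23.4% of the other genes. In all, 150 chemosensory genes (65.2%) had no summit within 10 kb, against 40.6% of the other genes. The farthest was Ir41a at 840173 bp.

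**Figure D5:**
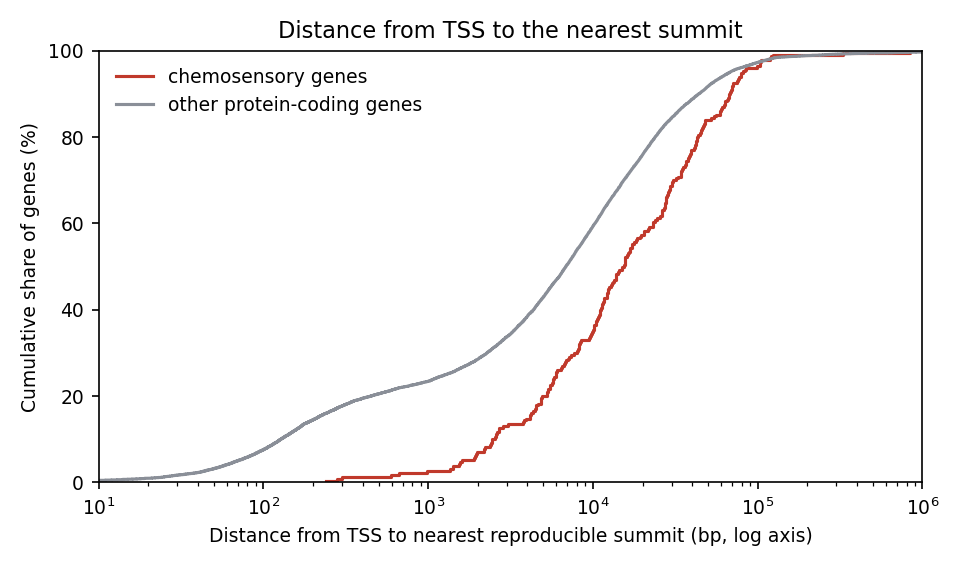
Cumulative share of genes (%) by distance from their TSS to the nearest reproducible summit (bp, log axis), for 230 chemosensory genes (red) and 13715 other protein-coding genes (grey). At 1 kb the red curve is at 2.61% and the grey one at 23.4%, and the medians are 15208.5 and 6852 bp.

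Some chemosensory genes came near to a reproducible summit without holding one. By definition, such a summit lies past the 3' end or beyond 1 kb upstream. The 5 nearest were Ir31a (76 bp outside, with Ip259 at -79 bp), Gr89a (264 bp), Ir68b (300 bp, with yps at -37 bp), Or46a (339 bp, with CG18011 at 75 bp) and Gr39b (347 bp, with CG8665 at -174 bp). The summit lay past the 3' end of Ir31a, Gr89a, Ir68b and Or46a, and -1347 bp from the TSS of Gr39b. At Gr89a the summit, of rank 1145, was 1406 bp downstream of its own TSS, and no other protein-coding TSS was nearer.

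The pooled list is longer and holds background regions, and it added weaker summits. A pooled summit was present at 36 chemosensory genes (15.7%), against a background of 56.8%, and at 10 of them (4.35%) with a q-value below 0.05, against 37.9%. By family there were 5 Or, 11 Gr, 8 Ir and 12 Obp genes. The 40 distinct summits had a median rank of 12361 of 20696, and 12 had a q-value below 0.05. Of these 40, 13 lay in coding sequence, 15 in intergenic sequence, 6 in introns, 5 in 5' UTRs and 1 in a noncoding exon.

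Beyond the 6 genes already described, 4 had a pooled summit with a q-value below 0.05: Gr64a, Ir67c, Gr10a and Or10a. At Ir67c the summit lay in its own promoter, at -259 bp (rank 7174, q = 0.0107). The matching peaks ranked 8726, 7789 and 19214 in replicates 1, 2 and 3, and only that of replicate 2 had a q-value below 0.05 (0.000835). Gr10a and Or10a are annotated over the same span (X:11413467 to 11417422) and share 1 summit at -997 bp (rank 6668, q = 0.00532), so they are not separate cases. That peak ranked 5300, 25661 and 6868 in the replicates.

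An own-promoter summit in the pooled list was found at 8 chemosensory genes, against a background of 35%, and at 3 with a q-value below 0.05, against 22.2%. Besides Obp99b, Obp83g and Ir67c these were Gr21a (-260 bp, rank 9714, q = 0.143), Obp28a (256 bp, rank 9811, q = 0.153), Obp18a (258 bp, rank 16643, q = 0.758), Obp83cd and Gr89a (324 bp, rank 17690, q = 0.817). The Or family had none. At Obp28a, an abundant antennal binding protein, the peak had a q-value of 0.00982 in replicate 2 and 0.516 in replicate 1, and no peak of replicate 3 held the summit. At Gr21a it was 0.0200 in replicate 3 and 0.833 in replicate 1, and no peak of replicate 2 held it.

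Coreceptors and carbon dioxide receptors, which serve many neurons or a defined sense, had no reproducible summit. These were 0 of 3 ionotropic coreceptor genes, 0 of 2 carbon dioxide receptor genes and Orco. Over all protein-coding genes, 26.4% had a reproducible and 56.8% a pooled summit. Lists this short cannot be told apart from that background. The carbon dioxide receptor genes Gr21a and Gr63a both had weak pooled summits, and that of Gr63a (-248 bp, rank 13585, q = 0.515) was nearer to Lamtor4 at -49 bp. Ir8a had a pooled summit in its coding sequence (2133 bp, rank 9781, q = 0.151). Ir25a and Ir76b had none. Orco, the shared odorant coreceptor, had a pooled summit at -841 bp with rank 6310 and a q-value of 0.00262, and its nearest reproducible summit was 38717 bp away. The binding protein gene lush had a pooled summit at 777 bp with rank 10963 and a q-value of 0.264, and its nearest reproducible summit was 6207 bp away. The pooled summits of Orco and lush were over 500 bp from the gene's own TSS. Whether another gene's TSS was nearer was not tabulated for them.

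Lists of receptors with a known use were taken next. Over all protein-coding genes, 26.4% had a reproducible and 56.8% a pooled summit. Of the 25 odorant receptor genes of the larval nose, 0 had a reproducible summit and 2 had a pooled one (Or22c, q = 0.897, and Or45a, q = 0.927). Of the 9 sugar and fructose receptor genes, 0 had a reproducible summit and 2 had a pooled one, at Gr61a and Gr64a. Of the 14 antennal ionotropic receptor genes, 0 had a reproducible summit and 2 had a pooled one, at Ir41a and Ir92a.

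Other genes of the chemosensory pathway were taken from lists of accessory genes and of transcription factors. Of 28 accessory genes, 4 (14.3%) had a reproducible summit, against 26.4% of all protein-coding genes. None of these was in an own promoter, against 14.3% of all protein-coding genes. The accessory genes are short, with a median of 1814 bp for the gene with its 1 kb upstream. Below 2 kb, 9.81% of the other genes had a reproducible summit and 5.11% had one in their own promoter. The summit at ppk29, a channel subunit of pheromone-sensing neurons, stood -18 bp from the translation factor gene eEF5 (rank 2885), and that at CheA56a -59 bp from CG30122 (rank 2561). CheB42c (2015 bp, rank 3199) and CheB93b (-549 bp, rank 3530), of a family linked to taste of pheromones, had summits whose nearest TSS was their own but over 500 bp away. The CheB93b peak ranked 2331 and 2979 in replicates 1 and 3 but 10960 in replicate 2.

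Of 12 transcription factor genes that act in chemosensory neurons or their precursors, 4 (33.3%) had a reproducible summit, against a background of 26.4%. Their median length with 1 kb upstream was 9729 bp, and at 5 kb or more 43.4% of the other genes had a reproducible summit. The strongest of the 4 was at the promoter of Xbp1, a factor of the unfolded protein response (-144 bp, rank 623). No peak in the lists of replicates 2 and 3 held that summit. Replicate peaks nearby that do not hold a summit were not matched, so this does not show that the site lacked a peak there. The others were sim, a bHLH-PAS factor of the midline (-4191 bp, rank 1206), and Eip93F (20715 bp, rank 3595), whose summit no replicate 2 peak held. The last was the promoter of Poxn, which specifies chemosensory bristles (-472 bp, rank 4238). A pooled summit, background included, was present at 9 of the 12 genes (75%), against 56.8% of all protein-coding genes. At 5 kb or more, 83.7% of the other genes had a pooled summit. The proneural gene ato, which starts olfactory organs, amos and onecut were the genes without a summit in the reproducible or the pooled list.

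Low counts were not restricted to chemosensory genes. In the Cyp family of cytochrome P450 genes, 4 of 85 (4.71%) had a reproducible summit, and in the Cpr family of cuticle protein genes 0 of 70, against 26.4% of all protein-coding genes. Pooled summits were found at 15.7% of chemosensory genes, at 24.7% of Cyp and 24.3% of Cpr genes, and at 56.8% of all protein-coding genes. No test of these differences was made.

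Of the 4 motifs searched, TATCGATA and CACGCG were rarer in chemosensory promoters than in other promoters, as a description. In windows from 250 bases before to 50 after the gene start, searched on both strands without removing overlaps between motifs, TATCGATA was present at 1 of 230 chemosensory promoters (0.435%, Gr68a), against 9.51% of other promoters. This element is bound by DREF, a factor of housekeeping promoters. CACGCG stood in 1.74% of chemosensory promoters, against 6.19%, CACGTG in 3.48%, against 4.21%, and CACNAG in 31.3%, against 29.7%. For CACGTG the direction turned in the 250 bases before the gene start alone, with 3.48% of chemosensory promoters, against 2.86% of all promoters. Over all protein-coding promoters the shares were 9.36% for TATCGATA, 6.12% for CACGCG, 4.20% for CACGTG and 29.7% for CACNAG. The mean GC content was 39.7% (SD 5.98) in chemosensory and 39.1% (SD 7.77) in other promoters. Own-promoter summits were found at 0.873% of the 229 chemosensory genes without it, against 13.7% of the 12411 other genes without it and 21.8% of the 1304 other genes with it.

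None of the 8 chemosensory promoters with the E-box CACGTG had a reproducible own-promoter summit, and over all protein-coding genes 94 of the 586 with it did, so most such promoters lacked one in either group. The 8 genes were Gr22b, Obp50d, Obp51a, Ir56b, Or74a, Ir75d, Ir76b and Obp83ef. Of these, Obp83ef alone had a pooled summit, away from the motif in its coding sequence. Of these matches, 5 are shown with their flanks, on the strand of the gene from the same genome, with the E-box in capitals, to let its surroundings be compared where no peak was called.
Gr22b, chr2L:1793256-1793301: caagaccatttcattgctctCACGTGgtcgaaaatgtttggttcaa
Or74a, chr3L:17329378-17329419: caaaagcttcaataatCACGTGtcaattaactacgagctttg
Ir75d, chr3L:18911366-18911411: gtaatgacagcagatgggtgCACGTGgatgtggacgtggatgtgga
Ir76b, chr3L:20111516-20111561: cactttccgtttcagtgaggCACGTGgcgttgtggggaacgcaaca
Obp83ef, chr3R:6111169-6111214: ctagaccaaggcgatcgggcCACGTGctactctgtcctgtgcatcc
The 5 matches lie on the minus strand of the arm and start at -13, -234, -209, -7 and -160 bases from the gene start, in the order shown. A match of letters is not a site, and a lack of peaks in whole embryos does not show that a match is unbound in single cells.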

How the data were processed

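ChIP-seq peak lists in dm6 were used from 3 biological replicates of 1 group. Per the deposited text records, each replicate list and the pooled list were called on alignments with a control, and the reproducible set was derived from all of them. No source used here names the aligner, the caller, their versions, the IDR cutoff or the read depth. The deposited lists give each peak's signal value (its scale is not stated, and it is not comparable between lists) and its −log10 q-value. The dm3 lists were not used. Summits were column 2 plus column 10, as deposited, written 1-based. Genes came from Ensembl release 115 (BDGP6.54) and sequence from the RefSeq genome of the same assembly, with arm lengths that cover all annotated genes and peaks. A gene's territory was its body plus 1 kb upstream, on 6 arms. Distances use all annotated TSSs of protein-coding genes, and negative ones are upstream. Top peaks are the 4524 of highest signal in a replicate. Assignment was tested on simulated summits. Python 3.11.15, numpy 2.4.6, pandas 2.3.3 and scipy 1.17.1 were used. The genes named were those with a reproducible summit or a pooled one of q below 0.05, own-promoter pooled summits, coreceptors and carbon dioxide receptors, the 5 nearest misses, the 8 highest pathway genes and the 5 longest clusters, counted in genes. The members and lists were chosen with earlier results of these data known. Shares over genes carry no test, since genes of a family are not replicates. The labels call the replicates biological and give no batch. Alternatives were other territories, overlap, peak subsets, replicates left out, TSS distances and promoter windows.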

Additional observations from a re-analysis of the deposited data

How the results depend on the processing

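The count of 6 chemosensory genes with a reproducible summit depends on how far upstream is counted: it was 3 with 500 bp upstream, 10 with 2 kb and 0 with the gene body alone, against 24.9%, 29.2% and 11.3% of all protein-coding genes. It was 10 when each summit went only to the nearest TSS, at any distance (22.0% of all genes). It was 4 to 5 when 1 replicate was left out (the top peaks shared by the other 2), against 21.2 to 23.2% of all genes. It was 7 with any overlap, 4 among the stronger peaks of the set (above its median signal), and 6, 5 and 5 with the top peaks of each replicate alone. The 36 genes with a pooled summit became 10 at q below 0.05 and 8 at q below 0.01, against 37.9% and 34.8% of all genes. They became 25 and 53 with 500 bp and 2 kb upstream, against 53.1% and 62.4% of all genes. The 2 own-promoter genes became 0 within 200 bp of the TSS, where 11.1% of all genes remained, and were 2 within 1000 bp or with noncoding TSSs counted. The mean share per replicate of 2.32% became 4.35% at q below 0.05 and 29.1% with all listed peaks, against 37.3% and 61.3% of the other genes. With 1 replicate left out it was 2.17 to 2.39%, against 26.2 to 27.0% of the other genes. In the 250 bases before the gene start alone, CACNAG was in 23.0% of chemosensory promoters (23.9% of all) and TATCGATA in 0 (7.996% of all). There CACGTG was in 3.48%, against 2.86% of all, so its direction turned, and CACGCG in 1.30%, against 4.09% of all. In every alternative for summits the share was lower for chemosensory genes than for the genes it was set against. No paired analysis was possible because all samples form 1 group. Depth is unknown, so a missing peak was not detectable in these lists and is not shown to be absent binding.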
